A study of Mus musculus with 24 samples.

Results

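Control cerebellum was compared with control neocortex, the normal difference between these brain regions in animals without a tumour. The comparison used the 8 control libraries of these regions among the 24 libraries of the series, 4 from cerebellum and 4 from neocortex, picked by their labels alone. The study injected LLC cells into male C57BL/6J mice and let them grow for up to about 3 weeks, to follow wasting in a tumour-bearing host. Neocortex, cerebellum and hippocampus were profiled by bulk RNA sequencing in 4 injected and 4 control samples each. The controls were male C57BL/6J mice at 4 months of age that received a mock injection, and their libraries hold the title numbers 14 to 17 in each region. By the labels the libraries are biological replicates, without a statement of how the regions were cut or whether libraries of 1 number came from 1 animal, so p-values measure the spread between these libraries. Expression is given in TPM, a unit that divides by transcript length and scales each library to the same total, so levels of different genes can be set side by side but the number of reads is not known.

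The cerebellum is built from a small set of cell types laid out in a repeated circuit. Granule cells are tiny excitatory neurons, far the most numerous, whose axons excite Purkinje cells, the large inhibitory neurons that form the output of the cerebellar cortex, while Bergmann glia wrap the synapses between them. The neocortex is a layered sheet of excitatory pyramidal neurons, which derive from the embryonic forebrain, and of several classes of inhibitory interneurons marked by peptides such as somatostatin and VIP. In whole tissue, fewer cells of a type and less RNA per cell cannot be told apart.

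Promoter windows of 4 genes that the results turn on are shown, each from 250 bases before to 50 bases after an annotated start, read on the strand of the gene (RefSeq, GRCm38.p6). Pcp2 has 4 listed starts, of which the one nearest the outer end of the gene's annotation is shown, and the other 3 genes have 1. Pcp2, the Purkinje cell protein 2, Gabra6 and Cbln3, markers of granule cells, were among the genes most restricted to cerebellum, and Sst, the precursor of somatostatin, marks a class of neocortical interneurons and was among the genes lowest in cerebellum relative to neocortex. Capitals mark the letters AGGTCA, which retinoic acid receptor-related orphan receptors such as RORA bind, TTGGC, the binding site letters of nuclear factor I proteins, and TGACGTCA, the cyclic AMP response element, each searched on both strands. Where TTGGC lies on the opposite strand it reads GCCAA.
Pcp2: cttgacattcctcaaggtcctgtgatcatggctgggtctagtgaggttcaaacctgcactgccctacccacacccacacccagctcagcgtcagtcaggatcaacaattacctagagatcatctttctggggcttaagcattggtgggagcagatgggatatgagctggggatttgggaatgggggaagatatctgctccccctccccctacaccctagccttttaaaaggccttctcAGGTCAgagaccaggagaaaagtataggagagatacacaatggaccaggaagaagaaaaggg
Gabra6: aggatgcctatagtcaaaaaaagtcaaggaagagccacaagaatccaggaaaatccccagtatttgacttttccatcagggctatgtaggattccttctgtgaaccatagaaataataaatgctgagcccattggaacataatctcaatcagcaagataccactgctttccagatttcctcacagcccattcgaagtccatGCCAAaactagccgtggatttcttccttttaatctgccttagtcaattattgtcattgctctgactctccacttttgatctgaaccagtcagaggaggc
Cbln3: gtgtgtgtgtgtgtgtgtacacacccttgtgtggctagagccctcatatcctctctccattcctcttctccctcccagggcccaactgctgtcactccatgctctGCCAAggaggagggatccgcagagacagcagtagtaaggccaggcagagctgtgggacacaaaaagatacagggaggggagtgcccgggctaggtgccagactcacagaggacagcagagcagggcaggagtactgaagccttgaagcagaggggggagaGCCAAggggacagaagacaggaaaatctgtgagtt
Sst: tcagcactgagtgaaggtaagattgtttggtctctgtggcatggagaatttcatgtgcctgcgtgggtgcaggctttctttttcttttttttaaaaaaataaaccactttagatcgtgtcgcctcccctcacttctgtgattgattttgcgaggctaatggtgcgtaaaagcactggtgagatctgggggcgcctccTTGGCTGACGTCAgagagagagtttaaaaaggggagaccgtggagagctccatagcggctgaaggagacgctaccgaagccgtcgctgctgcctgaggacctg
These windows lie on the minus strand at chr8:3625498-3625797, chr11:42321023-42321322, chr14:55884207-55884506 and chr16:23890795-23891094. In Pcp2 the letters AGGTCA began 12 bases before the start. In Sst the letters TTGGC and TGACGTCA stood next to each other, so that they form 1 run of capitals, and TGACGTCA began 48 bases before the start. Gabra6 held TTGGC once and Cbln3 held it at 2 places. Among all 11272 tested genes with a window, 14.8% held AGGTCA in any of their windows, 54.8% TTGGC and 3.46% TGACGTCA. Among the genes at least 3 log2 units higher in cerebellum, 105 of 155 had a window, and 24.8%, 58.1% and 2.86% of them held the same letters. For the genes at least 3 log2 units lower, 142 of 212 had a window, and the shares were 14.1%, 51.4% and 4.23%. These shares describe letters, not bound sites.

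All 8 libraries followed their region labels. Gabra6 stood at 761, 955, 876 and 986 TPM in cerebellum and at 0, 0, 0.0267 and 0.0513 TPM in neocortex, in the order of the title numbers, and Tbr1, a transcription factor of cortical excitatory neurons, at 0.468, 0.470, 0.319 and 0.226 TPM and 70.3, 64.4, 68.6 and 67.2 TPM. No 2 of the 28 library pairs were identical, the lowest correlation of log2 values across genes was 0.994 within cerebellum and 0.996 within neocortex, and the highest between the regions was 0.871. The first principal component held 95.9% of the variance and separated the regions. Between 14368 and 14785 genes reached 1 TPM in a library.

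Several marker lists gave values that belong beside the results. Cerebellar replicate 14 held more transcripts of Hox genes, which are active in the hindbrain behind the cerebellum and in the spinal cord, than the other cerebellar libraries. Their sum over 39 genes was 13.9 TPM in that library, 1.49 to 3.79 TPM in the other cerebellar ones and 0.183 to 0.492 TPM in neocortex, and 0 of the 39 reached a mean of 1 TPM. The same library had the highest sum of thalamic and brainstem markers, 165 TPM against 107 to 129.7 TPM, and of myelin genes, 4529.6 TPM against 3679 to 4181 TPM. The neocortical libraries carried markers of striatum, which lies beneath the cortex. The 13 striatal markers summed to 1509 to 1619 TPM in neocortex, while cerebellar libraries held 366 to 401 TPM and hippocampal ones 139.6 to 163 TPM, and the defining ones were far from 0 in neocortex, with 43.99 ± 3.25 TPM for the dopamine receptor Drd2 and 66.7 ± 3.69 TPM for the adenosine receptor Adora2a (SD, n = 4, as for all levels). Markers of choroid plexus and ependyma summed to 4473 to 5365 TPM in cerebellum, and to 303, 1876, 1822 and 1173 TPM in neocortical replicates 14 to 17. In hippocampal replicates 14 to 17 they summed to 2639, 146, 92.5 and 4172 TPM. The part that these markers play in other results was not tested.

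**Figure D1:**
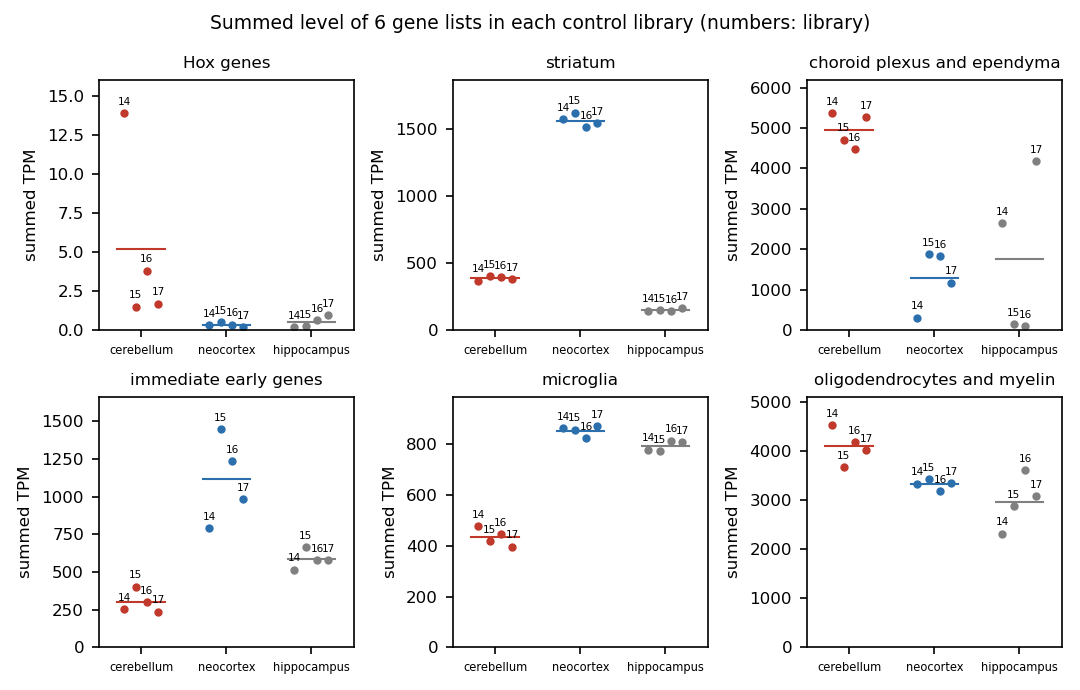
Summed TPM of 6 gene lists (y axis) in each control library of cerebellum, neocortex and hippocampus (x axis); points are libraries with their title numbers and lines are means. Cerebellar library 14 stands above the other cerebellar libraries in Hox genes, neocortex holds the striatal markers, and the microglial sum is lower in every cerebellar library than in every neocortical one.

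The regions differed in most of their expressed genes. Of 15258 genes with a mean of at least 1 TPM in either region, 9245 were higher in cerebellum (60.6%) and 3808 were lower (25.0%), called with limma on log2(TPM + 1) at a Benjamini-Hochberg adjusted p of at most 0.05. With a difference of at least 1 log2 unit as well, 2230 genes were higher (14.6%) and 1291 lower (8.46%). Differences below 0.5 log2 units made up 48.0% of the tested genes. All 4 cerebellar libraries lay above all 4 neocortical ones for 8829 genes (57.9%) and below them for 3534 (23.2%). The genes nearest the expression limit were A830029E22Rik, with means of 0.0681 TPM in cerebellum and 1.00 TPM in neocortex, just inside, and Fam186b, with 0.999 and 0.829 TPM, just outside. Without cerebellar replicate 14 the calls were 9203 higher and 3883 lower.

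The excess of higher genes depended on the scaling. Transcripts of the mitochondrial genome took 26.9% to 27.5% of the TPM in neocortex and 20.3% to 22.1% in cerebellum, and their part in the excess was not tested. The median difference of all tested genes was 0.31 as deposited, 0.01 after median-ratio scaling and 0.06 after quantile normalization. The calls were 6150 higher (40.3%) and 6213 lower (40.7%) with median-ratio scaling, and 6695 higher (43.9%) and 5620 lower (36.8%) with quantile normalization. By at least 1 log2 unit 1298 (8.51%) and 1406 (9.21%) were higher with these scalings. With all 3 scalings, 6016 genes were called higher (39.4%) and 3767 lower (24.7%). Gene groups are therefore given with their count as deposited, the count that held with all 3 scalings, and their median, to be read against 60.6%, 25.0%, 39.4%, 24.7% and 0.31. The groups were chosen with earlier results of these data known, so their counts are descriptions and not tests against these shares. Differences are in log2(TPM + 1) units, cerebellum minus neocortex, with the standard error of the fit, and this scale understates the change of low genes.

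**Figure D2:**
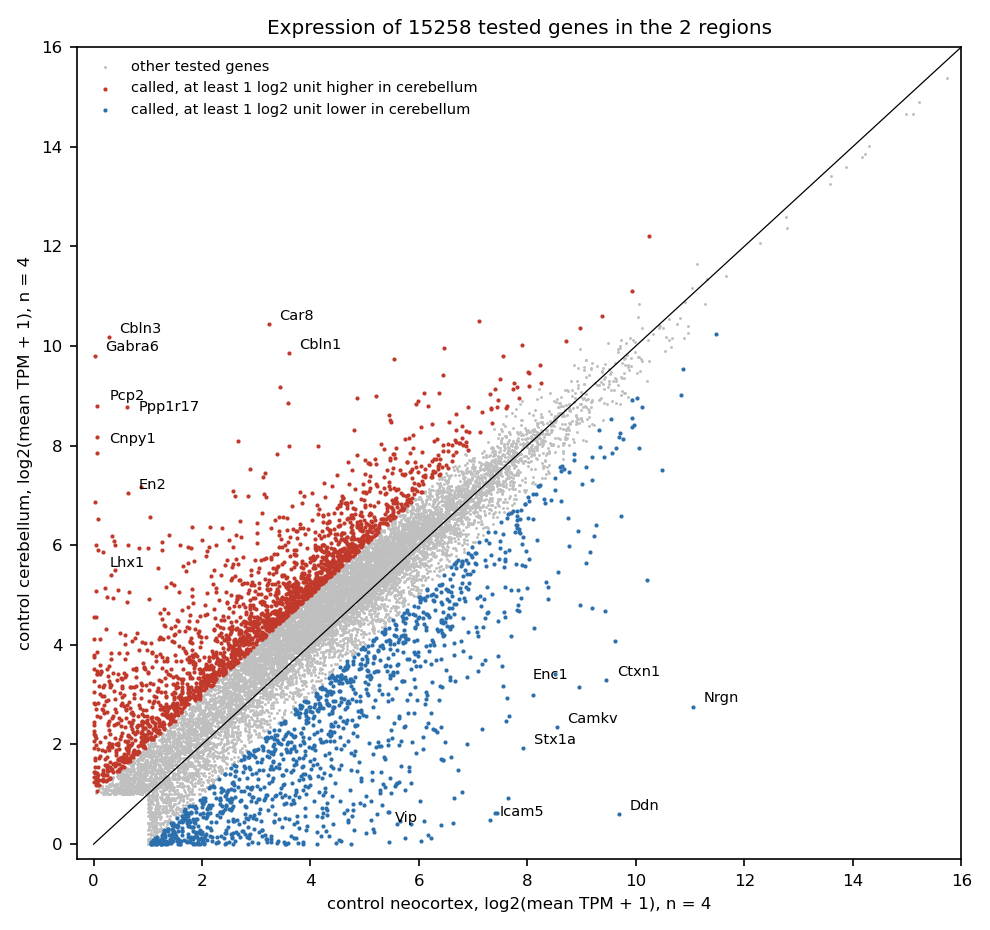
Mean expression of the 15258 tested genes in control neocortex (x axis) and control cerebellum (y axis), both as log2(mean TPM + 1) of 4 libraries; coloured points are called and differ by at least 1 log2 unit, and the line marks equal levels. Cbln3 and Gabra6 lie at the far left, near 0 in neocortex, and Nrgn and Ddn lie far below the line.

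The genes with the largest excess in cerebellum were those of granule and Purkinje cells. Cbln3 (chromosome 14, 55878913 to 55884392), a secreted member of the cerebellin family, stood at 1135, 1173, 1109 and 1200.5 TPM in the 4 cerebellar libraries and 0.206, 0.202, 0.225 and 0.230 TPM in the neocortical ones, a difference of 9.89 ± 0.04 (adjusted p = 2.57e-17). Gabra6 (chromosome 11, 42306437 to 42321072), the alpha 6 subunit of the GABA-A receptor, differed by 9.77 ± 0.07 (adjusted p = 4.85e-15). Neither had a neocortical library anywhere near the cerebellar level, and replicate 14 had the lowest Gabra6 value in cerebellum. Pcp2 (chromosome 8, 3623371 to 3625545), which modulates G proteins in Purkinje cells, was at 440.4 ± 22.8 TPM in cerebellum and 0.0450 ± 0.0542 TPM in neocortex, a difference of 8.72 ± 0.05. Ppp1r17 (chromosome 6, 56017497 to 56032689), a phosphatase inhibitor of Purkinje cells, was at 436 ± 33.8 TPM and 0.525 ± 0.0631 TPM. Car8 (chromosome 4, 8143362 to 8239041), a protein that binds the inositol trisphosphate receptor, reached 1394 ± 86.1 TPM in cerebellum, the highest mean among the first 15, and 8.43 ± 1.01 TPM in neocortex.

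The remaining genes of the 15 with the largest excess included developmental regulators and adhesion molecules. En2 (chromosome 5, 28165694 to 28172166), the engrailed homeobox factor of the midbrain and hindbrain, was at 130.4 ± 12.5 TPM against 0.553 ± 0.117 TPM, and its neighbour Cnpy1, a regulator of fibroblast growth factor signalling, at 289 ± 17.2 TPM against 0.0384 ± 0.0278 TPM. Cnpy1 (chromosome 5, 28200819 to 28245806) lies next to En2 on the same chromosome. Lhx1, the LIM homeobox factor of Purkinje cells, and Lhx1os, a transcript from the opposite strand beside it, stood at 58.98 and 115 TPM in cerebellum, and at 0.0517 and 0.0228 TPM in neocortex. Fat2, a giant cadherin of granule cell axons, reached 231 ± 17.6 TPM and differed by 7.79 ± 0.06. Dao, the enzyme that degrades D-serine, was at 63.000 ± 3.06 TPM against 0.0269 ± 0.0407 TPM. Crtam, Arhgef33, Il20rb and Cbln1, an adhesion molecule, a predicted guanine nucleotide exchange factor, an interleukin receptor subunit and the cerebellin that organizes parallel fibre synapses, differed by 5.83 to 6.43.

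The genes with the largest deficit in cerebellum were those of forebrain dendrites and spines. Ddn (chromosome 15, 98803777 to 98809490), which encodes the dendritic protein dendrin, stood at 0.769, 0.237, 0.574 and 0.464 TPM in cerebellum and 797, 819, 834 and 837 TPM in neocortex, a difference of -9.10 ± 0.09 (adjusted p = 3.27e-14). Nrgn (chromosome 9, 37544492 to 37552904), neurogranin, which binds calmodulin in dendritic spines, stood at 5.19, 4.94, 6.35 and 6.65 TPM and 2144, 2074, 2206 and 2071 TPM, a difference of -8.30 ± 0.07. The 4 values of each region lay close together for both genes, with a gap between the regions of more than 2 orders of magnitude. Icam5, the telencephalic adhesion molecule, was at 0.395 ± 0.130 TPM against 157 ± 5.23 TPM. Gda, guanine deaminase, was at 0.545 ± 0.104 TPM against 172 ± 4.99 TPM, and Enc1, an actin-binding kelch protein, at 7.88 ± 1.02 TPM against 493 ± 18.9 TPM. Stx1a, a syntaxin of synaptic vesicle release, was at 2.81 ± 0.209 TPM against 242 ± 10.7 TPM.

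Channel and receptor genes were also among the 15 lowest. The inward rectifier Kcnj4 and the silent channel subunit Kcnv1 differed by -6.78 ± 0.05 and -6.10 ± 0.06. The muscarinic receptor Chrm1 differed by -6.03 ± 0.07. Camkv, a pseudokinase of spines, Ctxn1, a small membrane protein, and Egr3, an immediate early transcription factor, differed by -6.17 to -6.20. Vip differed by -5.99 ± 0.07.

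Genes that were high in one region and near 0 in the other were few. A mean of at least 10 TPM in cerebellum with less than 0.1 TPM in neocortex was found for 21 genes. Besides the genes above they included Barhl1 and Tlx3, homeobox factors, with 12.5 and 12.8 TPM in cerebellum, Slc6a5, the glycine transporter of inhibitory neurons, with 33.03 TPM, Skor2, a corepressor of Purkinje cells, with 10.5 TPM, and Sycp1, known from meiotic chromosomes, with 16.4 TPM. The reverse held for 18 genes. Among them were Kcnv1, Fezf2, Dlx1, Dlx5, Dlx6, Nr2e1 and Cort, and Crym, a thyroid hormone binding protein, at 52.7 TPM in neocortex. Avp, the hormone vasopressin of hypothalamic neurons, was at 27.4, 4.07, 17.8 and 4.87 TPM in neocortical replicates 14 to 17 and at 0.0344 TPM in cerebellum. Tlx3 and Sycp1 were named after their values were seen.

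**Figure D3:**
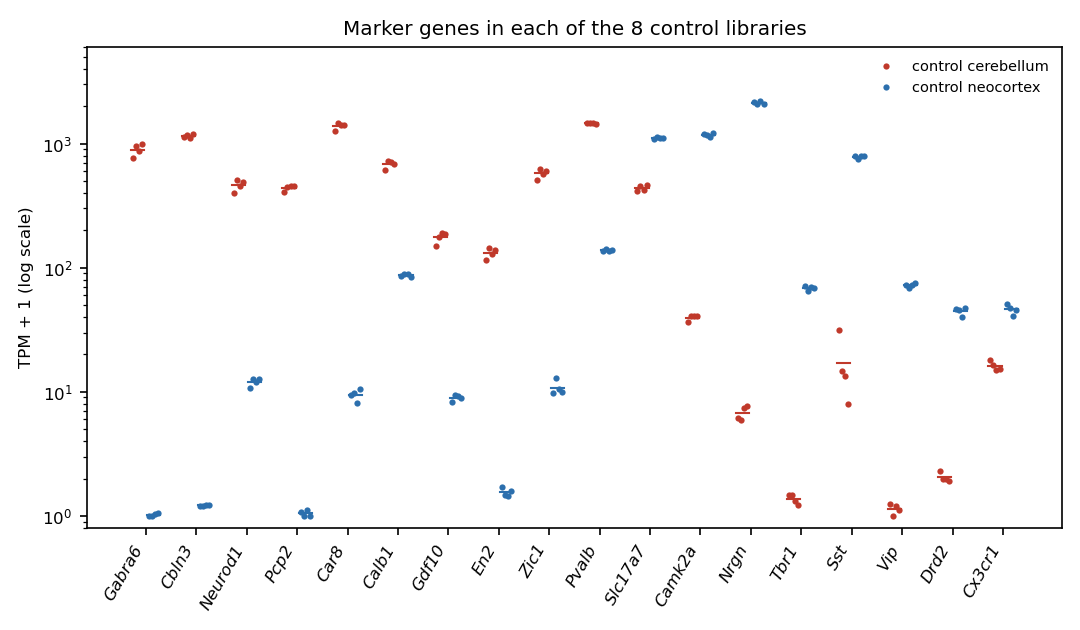
Level of 18 marker genes (x axis) as TPM + 1 on a log scale (y axis) in each control library of cerebellum and neocortex; points are libraries and short lines are means. Within a region the 4 libraries lie close together except for genes near 0 and for Sst in cerebellum, and no gene shown has overlapping regions.

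Granule cell genes formed the highest list. Of the granule neuron list 19 of 20 tested members were called higher and 1 lower, 19 and 1 with all 3 scalings, with a median difference of 3.92. Neurod1, a basic helix-loop-helix factor of granule cells, was at 461 ± 48.9 TPM against 10.996 ± 0.891 TPM, a difference of 5.27 ± 0.08. Zic1, a zinc finger factor of cerebellar progenitors and granule cells, was at 576 ± 49.7 TPM against 9.79 ± 1.39 TPM. Grin2c, the NMDA receptor subunit of mature granule cells, differed by 3.50 ± 0.04, and Gabrd, the delta subunit that pairs with alpha 6 outside synapses, by 1.46 ± 0.07. The exception was Slc17a7, the vesicular glutamate transporter that granule cells share with cortical pyramidal neurons, at 437 ± 20.5 TPM in cerebellum and 1110.4 ± 12.8 TPM in neocortex.

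Purkinje cell genes were nearly as one-sided. Among them 21 of 22 tested members were called higher and 1 lower, 21 and 1 with all 3 scalings, with a median difference of 2.91. Calb1, the calcium buffer calbindin, was at 681 ± 48.9 TPM against 85.8 ± 2.80 TPM, and Itpr1, the inositol trisphosphate receptor that releases calcium, at 887 ± 55.6 TPM against 186 ± 13.3 TPM. Slc1a6, the Purkinje cell glutamate transporter, differed by 4.39 ± 0.05. Foxp2, a forkhead factor that Purkinje cells share with deep cortical layers, was the one member called lower, at 2.58 ± 0.127 TPM against 5.48 ± 0.140 TPM. Pcp4, a calmodulin regulator used as a Purkinje marker, was high in both regions, at 1826 ± 17.9 TPM against 1067 ± 17.1 TPM.

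Genes of Bergmann glia were mostly higher, while those of cerebellar interneurons gave a mixed list. For Bergmann glia, 12 of 14 tested members were called higher and 1 lower, 11 and 1 with all 3 scalings, with a median difference of 1.44. Gdf10, a growth factor of the TGF-beta family made by these glia, was at 175 ± 18.6 TPM against 7.94 ± 0.459 TPM, and A2m, a protease inhibitor, at 66.1 ± 3.73 TPM against 1.40 ± 0.328 TPM. Hopx, Slc1a3 and Gria4, a homeodomain-only factor, a glial glutamate transporter and an AMPA receptor subunit, differed by 1.11 to 2.39. The ETS factors Etv4 and Etv5 split, with 0.84 ± 0.07 and -0.51 ± 0.15, and the Wnt inhibitor Wif1 differed by 0.40 ± 0.14, a call that was lost with both other scalings. Of the list of cerebellar interneurons and unipolar brush cells, 9 of 13 tested members were called higher and 4 lower, 8 and 4 with all 3 scalings, with a median difference of 2.35. Its factors Tfap2a, Tfap2b and Pax2 differed by 2.51 to 4.38, the receptor tyrosine kinase Kit by 2.35 ± 0.06 and Slc6a5, which marks glycinergic neurons, by 4.99 ± 0.17. Grm2 and Nxph1, used as Golgi cell and interneuron markers, were lower, at -0.79 and -1.04, and Lgi2 was higher by 0.38 without holding this call in all scalings.

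Markers of cortical pyramidal neurons formed the lowest list. Of these 3 of 16 tested members were called higher and 13 lower, 3 and 13 with all 3 scalings, with a median difference of -4.21. Tbr1 and Emx1, another transcription factor of these neurons, were at 67.6 and 19.2 TPM in neocortex and at 0.371 and 0.119 TPM in cerebellum. Camk2a, the alpha subunit of the calcium and calmodulin kinase of spines, stood at 35.2, 39.5, 39.9 and 39.6 TPM in cerebellum and 1201, 1169, 1124 and 1206 TPM in neocortex. Neurod6 was lower, at -2.69, whereas Neurod2, which granule cells express as well, was higher by 1.19.

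The layer markers fell on the same side with exceptions. Of the upper layer list 1 of 14 tested members were called higher and 12 lower, 1 and 12 with all 3 scalings, with a median difference of -1.50. Rasgrf2, a Ras exchange factor of the upper layers, was at 4.37 ± 1.52 TPM against 71.2 ± 0.561 TPM, and Rorb, Otof, Wfs1, Inhba and Unc5d differed by -1.35 to -2.46. The related homeobox factors Cux2 and Cux1 went apart, with -0.47 ± 0.04 and 0.64 ± 0.05. For layer 5, 2 of 10 tested members were called higher and 8 lower, 2 and 8 with all 3 scalings, with a median difference of -1.78. Fezf2 and Bcl11b, factors of subcortically projecting neurons, were at 25.8 and 42.4 TPM in neocortex and 0.00863 and 0.572 TPM in cerebellum. Ldb2, Crym, Tshz2 and Parm1 differed by -0.55 to -5.62. The 2 higher members were Etv1, which granule cells also express, at 243 ± 34.9 TPM against 39.98 ± 2.40 TPM, and Bcl6, at 35.8 ± 6.58 TPM against 11.6 ± 0.902 TPM. For layer 6 and subplate, 3 of 11 tested members were called higher and 8 lower, 3 and 8 with all 3 scalings, with a median difference of -1.11. Rprm, Cplx3 and Ntsr1 differed by -2.70 to -4.83, and Syt6, Tle4 and Ctgf by -0.80 to -1.55, while Nxph4, a neurexophilin of subplate neurons, was higher by 1.71.

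Inhibitory neurons of the neocortex were marked by lower peptides and one higher calcium buffer. Of the list 3 of 19 tested members were called higher and 15 lower, 3 and 15 with all 3 scalings, with a median difference of -2.86. Sst stood at 30.5, 13.7, 12.3 and 7.03 TPM in cerebellum and 787, 745, 797 and 797 TPM in neocortex, a difference of -5.71 ± 0.31. Replicate 14 was the highest of the spread cerebellar values and replicate 17 the lowest, and the regions did not overlap. Vip was at 0.143 ± 0.113 TPM against 71.1 ± 2.42 TPM, and Npy, Cck and Crh differed by -2.42 to -3.14. Lhx6, the LIM homeobox factor of interneurons from the medial ganglionic eminence, was at 0.291 ± 0.0157 TPM against 14.4 ± 0.639 TPM. Pvalb, parvalbumin, which fast-spiking cortical interneurons share with Purkinje cells and cerebellar interneurons, was the reverse, at 1457 ± 21.7 TPM in cerebellum and 137 ± 2.20 TPM in neocortex. Adarb2 did not pass (0.04 ± 0.07).

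Transcription factors of hindbrain and forebrain went in opposite directions. Of the hindbrain and cerebellar factors 32 of 33 tested members were called higher and 1 lower, 32 and 1 with all 3 scalings, with a median difference of 3.10. The Zic family shared 1 direction, with differences of 5.75, 4.44, 1.89, 3.45 and 3.90 for Zic1 to Zic5. En1, the second engrailed gene, was at 1.55 ± 1.60 TPM and was listed at 0 in all 4 neocortical libraries. Meis2 was the one lower member, at 3.40 ± 2.37 TPM against 44.3 ± 1.85 TPM, while its relative Meis1 was higher, at 19.9 ± 1.52 TPM against 1.82 ± 0.168 TPM. Of the forebrain factors 3 of 18 tested members were called higher and 14 lower, 3 and 14 with all 3 scalings, with a median difference of -3.52. Lhx2 and Emx2, patterning factors of the embryonic cortex, and Otx1 differed by -1.83 to -4.80. Otx2, the relative of Otx1 that choroid plexus and some granule cells express, was higher, at 19.4 ± 1.51 TPM against 2.32 ± 1.23 TPM.

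The nuclear factor I genes, which act in granule cell maturation and in glia, were higher in cerebellum without being restricted to it. Nfia, Nfib, Nfic and Nfix differed by 1.63 ± 0.05, 1.02 ± 0.05, 1.09 ± 0.03 and 0.96 ± 0.05. Together with neuronal basic helix-loop-helix factors and their partners, 13 of 16 tested members were called higher and 2 lower, 11 and 2 with all 3 scalings, with a median difference of 1.02. Rora, the orphan receptor that Purkinje cells need, was at 114 ± 7.23 TPM against 23.9 ± 1.61 TPM, and its relative Rorb at 3.64 ± 0.379 TPM against 10.8 ± 0.328 TPM.

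**Figure D4:**
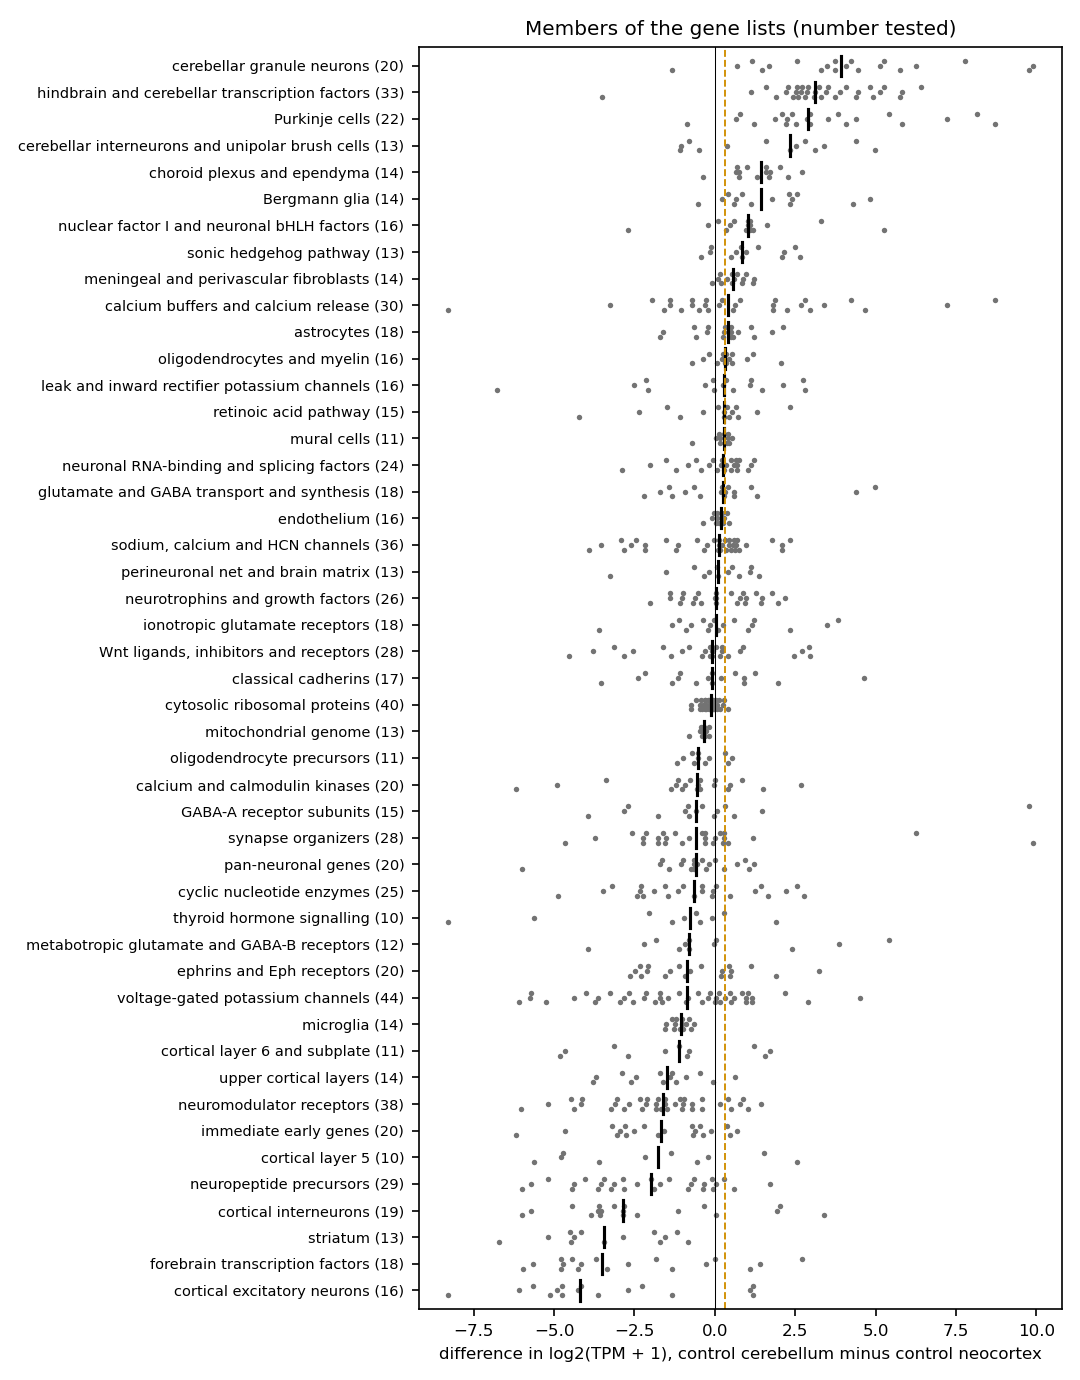
Difference in log2(TPM + 1) between control cerebellum and control neocortex (x axis) for the tested members of each gene list (y axis, number tested in brackets); grey points are genes, black bars are list medians, and the dashed line is the median of all tested genes, 0.31. Cerebellar cell types and hindbrain factors stand to the right of the line, and cortical neurons, forebrain factors, striatal markers, neuropeptides and immediate early genes to the left.

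GABA-A receptors, the pentameric chloride channels of fast inhibition, differed subunit by subunit. Of the subunits 4 of 15 tested members were called higher and 9 lower, 3 and 9 with all 3 scalings, with a median difference of -0.59. Gabra6 was higher, as given above. The lower alpha subunits were Gabra2, Gabra3, Gabra4 and Gabra5, with differences of -0.93, -2.83, -1.77 and -3.95. Gabra5, a subunit outside synapses in the forebrain, was at 3.16 ± 2.25 TPM against 57.2 ± 3.44 TPM, so that the extrasynaptic alpha subunits 5 and 6 went in opposite directions. Gabrb1 was lower, at -0.81, and Gabrb2 was higher by 0.31, a value equal to the median of all genes that was not called with all 3 scalings.

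Glutamate receptors divided in the same way. Of the ionotropic subunits 8 of 18 tested members were called higher and 8 lower, 7 and 8 with all 3 scalings, with a median difference of 0.03. The NMDA receptor subunit Grin2c was at 317 ± 17.96 TPM against 27.01 ± 0.231 TPM, and Grin2b, the subunit of the young brain and adult forebrain, at 5.20 ± 0.337 TPM against 73.6 ± 4.13 TPM. Grin2a and the common subunit Grin1 were lower, at -0.91 and -0.21. Among AMPA receptor subunits Gria4 and Gria1 were higher, by 2.33 and 0.60, and Gria3 and Gria2 lower, at -0.74 and -0.17. For metabotropic receptors and Homer scaffolds, 3 of 12 tested members were called higher and 7 lower, 3 and 7 with all 3 scalings, with a median difference of -0.80. The group I receptor Grm5 was lower, at 3.98 ± 0.839 TPM against 75.4 ± 3.82 TPM. Grm4, a presynaptic receptor of parallel fibres, was at 253 ± 14.7 TPM against 16.6 ± 0.874 TPM, whereas Grm2, Grm3, Grm7 and Grm8 differed by -0.79 to -1.83. Grm6 was listed at 0 in all 8 libraries.

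Transport and synthesis of the transmitters held members of both directions. There 10 of 18 tested members were called higher and 7 lower, 5 and 7 with all 3 scalings, with a median difference of 0.24. The astrocyte glutamate transporters were exchanged, with Slc1a3 at 494 ± 33.6 TPM against 228 ± 6.41 TPM and Slc1a2 at 231 ± 6.96 TPM against 754 ± 33.3 TPM. Slc17a8, a vesicular transporter of some interneurons, and Slc1a1, a neuronal uptake transporter, were lower, at -2.20 and -1.44. Slc17a6, the vesicular transporter of brainstem and thalamus, did not pass (0.19 ± 0.22), and its cerebellar values were 40.2, 16.8, 24.6 and 17.5 TPM, with replicate 14 the highest.

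Voltage-gated potassium channels were mostly lower. Of these channels and their accessory subunits 15 of 44 tested members were called higher and 27 lower, 10 and 27 with all 3 scalings, with a median difference of -0.87. By at least 1 log2 unit 6 were higher, not all of them named here, and 21 lower. The summed level of the list was nevertheless higher in cerebellum, at 2223 to 2383 TPM against 1883 to 1945 TPM. Of the shaker family Kcna1 and Kcna2 were higher by 0.97 and 0.86, Kcna3, Kcna4 and Kcna5 differed by -1.86 to -2.82, and Kcna6 did not pass (0.02 ± 0.04). Kcnb2, a delayed rectifier, was lower, at -1.63. Kcnc2, the only named member of the Shaw family, which serves fast firing, was at 6.42 ± 2.88 TPM against 53.7 ± 1.60 TPM. Among leak and inward rectifier channels 9 of 16 tested members were called higher and 5 lower, 7 and 5 with all 3 scalings, with a median difference of 0.29. The acid-sensitive leak channels Kcnk3 and Kcnk9 of granule cells were higher by 2.13 and 1.08, as were Kcnk1, Kcnk10 and Kcnk12 by 1.12 to 2.80, and the mechanosensitive Kcnk2 and Kcnk4 were lower, at -2.08 and -2.50. Kcnk13 was lower, at -0.31.

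Sodium, calcium and HCN channels were divided. There 19 of 36 tested members were called higher and 14 lower, 12 and 14 with all 3 scalings, with a median difference of 0.14. Scn3a, the sodium channel of the young brain, and Scn3b were lower, at -2.92 and -3.93. Scn4b, the subunit of resurgent current, was lower, at -1.16, at 259 ± 21.7 TPM in neocortex and 16.05 ± 1.70 TPM in hippocampus. Whether the striatal transcripts of the neocortical libraries had a part in the Scn4b level was not tested. Scn1a, Scn2a1, Scn8a and Scn2b differed by 0.15 to 0.63, close to the median of all genes. Cacna1a, the P/Q-type calcium channel of Purkinje cells and presynaptic terminals, was at 181 ± 13.6 TPM against 41.5 ± 1.69 TPM, whereas Cacna1e did not pass (0.10 ± 0.05). The beta subunits Cacnb4 and Cacnb3 went apart, by 0.65 and -2.18, as did the AMPA receptor partners Cacng2 and Cacng3, by 0.98 and -3.53.

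The secreted organizers of synapses showed an exchange within the cerebellin family. Cbln1 was at 912, 944, 866 and 965 TPM in cerebellum and 10.5, 10.7, 12.8 and 10.5 TPM in neocortex, and Cbln3 followed it. Cbln2 and Cbln4 were the reverse, at 1.72 and 3.86 TPM in cerebellum and 33.9 and 17.4 TPM in neocortex. Their relatives C1ql2 and C1ql3 were lower, at -1.60 and -2.22, and C1ql1, the ligand of climbing fibres, did not pass (-0.31 ± 0.26), with cerebellar values of 18.8, 7.22, 8.47 and 5.83 TPM. Without cerebellar replicate 14, the highest, C1ql1 differed by -0.63 (adjusted p = 0.000185). Of all synapse organizers, which include neurexins, neuroligins and LRRTM proteins, 8 of 28 tested members were called higher and 17 lower, 3 and 17 with all 3 scalings, with a median difference of -0.59.

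Calcium handling set the regions apart strongly in both directions. Of buffers, sensors and release channels 17 of 30 tested members were called higher and 13 lower, 15 and 13 with all 3 scalings, with a median difference of 0.40. Calb2, calretinin, which granule cells and unipolar brush cells hold, was at 856 ± 60.9 TPM against 45.3 ± 7.48 TPM. Hpca, the sensor hippocalcin, was at 57.5 ± 2.12 TPM against 565 ± 15.3 TPM, and Pcp4l1 was lower, at -1.04. Atp2a3 and Atp2b3, calcium pumps of the reticulum and of the cell membrane, were at 185 and 272 TPM in cerebellum and 6.36 and 76.1 TPM in neocortex. For the kinases and phosphatases that read calcium, 5 of 20 tested members were called higher and 13 lower, 4 and 13 with all 3 scalings, with a median difference of -0.54. Camk4, the nuclear kinase of granule cells, was at 262 ± 17.1 TPM against 91.5 ± 3.49 TPM. Camk2b, the kinase subunit that cerebellum also uses, was at 279 ± 11.9 TPM against 279 ± 4.83 TPM and did not pass (0.00 ± 0.03), and neither did Camk1 (-0.02 ± 0.04). Camk2d was higher by 0.85, and Camk2g, Camk1d and Camk1g differed by -0.55 to -1.13.

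Cyclic nucleotide enzymes were mostly lower, with some members higher. There 7 of 25 tested members were called higher and 15 lower, 7 and 15 with all 3 scalings, with a median difference of -0.66. Adcy1, the calmodulin-activated adenylyl cyclase, was at 705 ± 67.6 TPM against 259 ± 11.5 TPM, and Adcy8 was higher by 0.47. Adcy5, the cyclase of striatal neurons, was lower, at -2.29, Adcy2 at -1.89 and Adcy3 at -0.41, and Adcy9 did not pass (-0.05 ± 0.04). The guanylyl cyclase subunits Gucy1a2 and Gucy1a3 were lower, at -2.33 and -0.99. The calmodulin-dependent phosphodiesterases Pde1c and Pde1a were at 21.2 and 3.05 TPM in cerebellum and 2.77 and 118 TPM in neocortex.

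Receptors for neuromodulators were lower in cerebellum almost throughout. Of receptors for monoamines, acetylcholine, opioids, cannabinoids and adenosine 7 of 38 tested members were called higher and 31 lower, 5 and 31 with all 3 scalings, with a median difference of -1.61. The dopamine receptors Drd1 and Drd2 were at 48.9 and 43.99 TPM in neocortex, and at 0.380 and 1.04 TPM in cerebellum. Both are striatal markers and stand beside the striatal sums given above. Drd3 and Drd5 were lower, at -0.71 and -0.72, and Drd4 was higher by 0.87. The serotonin receptors Htr1a and Htr1d were lower, at -3.10 and -1.54, and Htr1b was higher by 0.17 as deposited and called lower with quantile normalization. Cnr1, the cannabinoid receptor, which granule cell terminals carry, was named after its value was seen and was at 235 ± 12.4 TPM against 86.4 ± 3.08 TPM.

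Neuropeptide precursors were likewise lower. Among them 2 of 29 tested members were called higher and 22 lower, 2 and 22 with all 3 scalings, with a median difference of -1.99. Penk, Pdyn and Tac1, precursors of enkephalin, dynorphin and substance P, differed by -1.89, -5.19 and -4.39, and Tac2 by -3.62. Penk and Tac1 are also on the striatal list. Penk remained abundant in cerebellum, at 157 ± 9.52 TPM, where Golgi cells express it.

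The sonic hedgehog pathway, through which Purkinje cells drive the growth of granule cell progenitors and instruct Bergmann glia, was higher. Of its genes 10 of 13 tested members were called higher and 1 lower, 10 and 1 with all 3 scalings, with a median difference of 0.83. The ligand Shh was at 6.53, 5.32, 6.48 and 5.46 TPM in cerebellum and 3.42, 3.17, 3.99 and 3.03 TPM in neocortex, a small difference with groups that did not overlap. Its receptor and target Ptch1 was at 114 ± 11.7 TPM against 24.6 ± 1.15 TPM, and the transcription factor and target Gli1 at 15.998 ± 1.07 TPM against 1.72 ± 0.182 TPM. Smo, the signal transducer, Sufu, the inhibitor, and Gli2 differed by 0.50 to 0.97. Gli3, the repressor, was lower, at -0.43.

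Other signalling families held members of both directions. For Wnt ligands, inhibitors and receptors, 8 of 28 tested members were called higher and 11 lower, 6 and 11 with all 3 scalings, with a median difference of -0.09. Wnt7a and Wnt3, ligands that granule cells make, were at 65.7 and 19.3 TPM in cerebellum and 11.1 and 1.69 TPM in neocortex, and Wnt2, Wnt4, Wnt5a and Wnt7b differed by -0.30 to -2.55. Wnt5b did not pass (-0.10 ± 0.09). For the retinoic acid pathway, 10 of 15 tested members were called higher and 5 lower, 4 and 5 with all 3 scalings, with a median difference of 0.29. Aldh1a1, a retinaldehyde dehydrogenase, was at 285 ± 7.84 TPM against 55.4 ± 4.71 TPM, Aldh1a2, Aldh1a3 and the degrading enzyme Cyp26b1 were higher by 0.38 to 1.30 (Aldh1a2 not with all 3 scalings), and the binding protein Crabp1 was lower, at -2.35 while Crabp2 was higher by 0.43 in the deposited scaling alone. Of ephrins and Eph receptors 8 of 20 tested members were called higher and 12 lower, 5 and 12 with all 3 scalings, with a median difference of -0.85. Epha4, Epha5, Epha6 and Epha7 differed by -1.11 to -2.48, and Epha8, Epha3 and Epha2 by 0.47 to 3.25. Of the classical cadherins 7 of 17 tested members were called higher and 9 lower, 6 and 9 with all 3 scalings, with a median difference of -0.10. Cdh1 and Cdh7 were higher by 1.96 and 0.92, and Cdh6 and Cdh9 lower, at -2.18 and -3.56, while Cdh2 and Cdh4 differed by -0.10 to -0.22, Cdh5 of endothelium by 0.19, and Cdh8 did not pass (-0.08 ± 0.06). Of neurotrophins and growth factors 12 of 26 tested members were called higher and 10 lower, 11 and 10 with all 3 scalings, with a median difference of 0.03. Ntf3 and its receptor Ntrk3 were higher by 1.48 and 1.28, and Bdnf, Nrtn and Ntrk2 differed by -0.53 to -0.66. With a correction for GC content and transcript length Nrtn turned from -0.62 to 0.07 (adjusted p = 0.62).

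Astrocyte genes went in both directions, in shares close to those of all genes. Of the astrocyte list 12 of 18 tested members were called higher and 6 lower, 8 and 5 with all 3 scalings, with a median difference of 0.40. S100b was at 1034 ± 24.2 TPM against 238 ± 5.22 TPM, and the water channel Aqp4 at 278 ± 20.7 TPM against 79.6 ± 5.15 TPM. Gfap, Gja1 and Gjb6, a filament and connexins, were higher by 0.50 to 0.73, and Aldh1l1 by 0.25, less than the median of all genes. Slc1a2 was lower, as given above.

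Myelin genes were close to the background and genes of oligodendrocyte precursors were mostly lower. Of the oligodendrocyte list 12 of 16 tested members were called higher and 3 lower, 4 and 3 with all 3 scalings, with a median difference of 0.32. Mog, Mag, Cnp and Mbp differed by 0.21 to 0.35, around the median of all genes, and were not called with all 3 scalings. Mal and Cldn11 were lower, at -0.38 and -0.18, and Mobp did not pass (0.06 ± 0.06). Of precursor genes 3 of 11 tested members were called higher and 7 lower, 0 and 7 with all 3 scalings, with a median difference of -0.51. Pdgfra, the growth factor receptor of these cells, was at 9.30 ± 0.228 TPM against 19.6 ± 0.769 TPM, Cspg4, Gpr17, Olig1, Olig2 and Sox10 were lower, at -0.20 to -1.17, and Bmp4 and Enpp6 were higher by 0.31 to 0.54, calls that median-ratio scaling took from both and quantile normalization from Bmp4. With the correction for GC content and transcript length Sox10 went from -0.20 to -0.03 (adjusted p = 0.677), and it was not called when all 24 libraries were fitted together (adjusted p = 0.25).

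Microglia, the resident macrophages, gave a uniform list. There 0 of 14 tested members were called higher and 14 lower, 0 and 14 with all 3 scalings, with a median difference of -1.05. Cx3cr1, the fractalkine receptor, stood at 17.1, 15.3, 14.002 and 14.3 TPM in cerebellum and 49.9, 46.2, 40.1 and 44.9 TPM in neocortex, P2ry12 at 15.7 ± 1.30 TPM against 47.9 ± 2.67 TPM, and Tmem119, Csf1r, C1qa, C1qb and C1qc differed by -1.02 to -1.34. The 14 genes summed to 397 to 478 TPM in the cerebellar libraries, all below the range of 824 to 873 TPM in the neocortical ones.

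Vessel and barrier genes differed little except in choroid plexus, whose marker sums varied widely between libraries of neocortex and of hippocampus, as given above. For endothelium, 7 of 16 tested members were called higher and 1 lower, 0 and 1 with all 3 scalings, with a median difference of 0.18. Cldn5, the tight junction protein of the blood-brain barrier, was at 68.1 ± 13.6 TPM against 66.9 ± 12.7 TPM and did not pass (0.02 ± 0.15), nor did Flt1, Ly6c1 and Itm2a (0.07, 0.23 and -0.02, although Ly6c1 passed with the title number as a block, adjusted p = 0.00095), and Pecam1, Cdh5, Ly6a and Slco1a4 were higher by 0.19 to 0.43 as deposited. None of these 4 was called with median-ratio scaling, and with quantile normalization Slco1a4 was called higher and Cdh5 lower. With the title number as a block 9 endothelial genes were higher and 2 lower. For choroid plexus and ependyma, 13 of 14 tested members were called higher and 1 lower, 12 and 1 with all 3 scalings, with a median difference of 1.45. Ttr, transthyretin, stood at 5144, 4509, 4268 and 5043 TPM in cerebellum and 265, 1774, 1728 and 1101 TPM in neocortex, where replicate 14 was the lowest. The difference of 2.28 ± 0.49 was called from these libraries but not when all 24 libraries shared 1 estimate of the spread (adjusted p = 0.123). Folr1, Kl, Clic6, Aqp1, Slc4a5 and Kcnj13 differed by 1.31 to 2.03, and Prlr by 0.70 without holding in all scalings. Aqp1, Kcnj13 and Prlr also lost their calls when all 24 libraries were fitted together (adjusted p = 0.0917, 0.0777 and 0.063).

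Immediate early genes, which neurons switch on with activity, were lower in cerebellum and also varied between libraries. Of the list 2 of 20 tested members were called higher and 14 lower, 0 and 14 with all 3 scalings, with a median difference of -1.68. Egr1 stood at 26.3, 25.6, 24.7 and 23.5 TPM in cerebellum and 129, 288, 239 and 236 TPM in neocortex, and Egr3 at 0.275, 0.455, 0.449 and 0.175 TPM and 80.2, 115, 96.2 and 98.8 TPM. Arc, Junb, Fosb, Egr2 and Egr4 differed by -2.53 to -3.21. Fos did not pass (-0.36 ± 0.39), with 21.5, 56.8, 28.9 and 13.8 TPM in cerebellum and 21.2, 55.1, 42.9 and 27.8 TPM in neocortex. Replicate 15 had the highest sum of this list in both regions, 401 and 1447 TPM, against 236 to 299.7 TPM and 792 to 1236 TPM in the other libraries.

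Thyroid hormone genes, neuronal splicing factors and the matrix were examined as well. For thyroid hormone signalling, 2 of 10 tested members were called higher and 7 lower, 1 and 7 with all 3 scalings, with a median difference of -0.77. The receptors Thra and Thrb were lower, at -0.57 and -2.05, as were the deiodinases Dio2 and Dio3 at -0.97 and -1.33, and the transporter Slco1c1 did not pass (-0.10 ± 0.05) except with the title number as a block and some other settings (adjusted p = 0.0352 with the block). Klf9, a target, was higher by 0.28, less than the median of all genes. For neuronal RNA-binding and splicing factors, 15 of 24 tested members were called higher and 8 lower, 10 and 8 with all 3 scalings, with a median difference of 0.25, with Rbfox2, Rbfox3, Nova1 and Elavl3 higher by 0.51 to 0.69, Elavl2 and Rbfox1 lower, at -1.21 and -0.19, and Elavl4 at 0.22. For the brain matrix, 6 of 13 tested members were called higher and 4 lower, 5 and 4 with all 3 scalings, with a median difference of 0.10. Neurocan (Ncan) was at 8.87 ± 0.862 TPM against 93.7 ± 4.39 TPM, the link protein Hapln1 was lower, at -1.53 and Hapln2, of nodes of Ranvier, higher by 1.14, and Vcan and Hapln4 were higher by 0.74 and 0.40. Acan and Bcan, which coat neurons and synapses, did not pass (-0.19 ± 0.15 and 0.06 ± 0.05). Without cerebellar replicate 14 Acan differed by -0.36 (adjusted p = 0.00541).

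Markers of other cells and of RNA content moved in part with the regions. Their first members are given by range. The 13 protein genes of the mitochondrial genome were all lower as deposited, with a median of -0.34. All 13 were also lower with median-ratio scaling, with a median of -0.67. With quantile normalization 1 was higher and 2 lower, mt-Nd5 and mt-Nd6, so that these 2 were lower with all 3 scalings. That normalization gives each rank the same value in every library, so a gene that keeps its rank cannot differ with it. As deposited, mt-Nd1, mt-Nd2, mt-Nd3, mt-Nd4, mt-Nd4l and mt-Co1 differed by -0.18 to -0.37. Of 40 cytosolic ribosomal protein genes 6 were higher and 25 lower, 0 and 22 with all 3 scalings, with a median of -0.13. The first 8 of them, Rpl3, Rpl4, Rpl5, Rpl7, Rpl8, Rpl10, Rpl11 and Rpl13, had differences of -0.31 to 0.41, of which Rpl8 and Rpl11 did not pass. Of meningeal and perivascular fibroblast genes 11 of 14 tested members were called higher and 0 lower, 8 and 0 with all 3 scalings, with a median difference of 0.56. Their collagens Col1a1, Col1a2 and Col3a1, the proteoglycans Dcn and Lum and the transporters Slc6a13 and Slc6a20a differed by 0.53 to 1.21, and the transporter Slc22a6 did not pass (0.11). Of mural cell genes 6 of 11 tested members were called higher and 1 lower, 1 and 1 with all 3 scalings, with a median difference of 0.28, and Rgs5, Abcc9, Tagln and Myh11 differed by 0.37 to 0.44, while Pdgfrb, Kcnj8 and Acta2 did not pass (0.05, 0.15 and 0.15). Of erythrocyte genes 2 of 8 tested members were called higher and 1 lower, 1 and 1 with all 3 scalings, with a median difference of 0.17, and 4 were higher with the title number as a block. Slc4a1 and Bpgm were higher by 1.08 and 0.16 as deposited, Bpgm with the opposite sign in both other scalings, and Alas2 did not pass (0.18). The globins Hbb-bt, Hbb-bs, Hba-a2 and Hba-a1 did not pass, at -0.01 to 0.21, although Hbb-bs and Hbb-bt did with the title number as a block (adjusted p = 0.0118 and 0.0219). Of pan-neuronal genes 5 of 20 tested members were called higher and 13 lower, 4 and 13 with all 3 scalings, with a median difference of -0.60, and Syp, Tubb3, Map2, Mapt and Stmn2 differed by -1.04 to 0.93, while Snap25 did not pass (0.00). Snap25 was called lower with median-ratio scaling (-0.33) and higher with quantile normalization (0.22). Of markers of thalamus and brainstem 3 of 9 tested members were called higher and 2 lower, 3 and 2 with all 3 scalings, with a median difference of -0.05. Of hippocampal markers 3 of 8 tested members were called higher and 4 lower, 2 and 4 with all 3 scalings, with a median difference of -0.59. Prkcd, a protein kinase used as a thalamic marker, was higher by 2.70, while Tcf7l2, Lef1 and Tph2 did not pass (-0.08, -0.05 and -0.20), and the hippocampal markers Prox1 and Lefty1 were higher by 0.31 to 1.93 (Lefty1 in the deposited scaling alone) and Npy2r and Ociad2 lower, at -2.43 and -1.38. Among the 13 striatal markers all were lower, 12 of them by at least 1 log2 unit, with a median of -3.44. Ppp1r1b, Rgs9 and Pde10a, signalling proteins of striatal neurons, differed by -1.16 to -3.44. Among the first members of the lists above, Neurod4, C1ql4, Wnt8b, Cyp26a1, Epha1, Hapln3, Gdnf, Dio1, Dsp, Slc6a4 and Slc6a2 did not reach the expression limit.

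Pairs of related genes were set against each other as shares, which the scaling of a library cannot move. For each of 32 pairs the level of the first gene was taken as a percentage of the sum of both. In 22 pairs the first gene was called higher and the second lower, and in 20 of them with all 3 scalings. The 4 cerebellar shares lay above the 4 neocortical shares in the 32 pairs reported, and other pairs written down are not reported here. The pairs were written down with their known regional preference in view, so this count is a description.

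The shares give the size of each exchange. Gabra6 made up 99.6% ± 0.315 of Gabra6 and Gabra5 in cerebellum and 0.0346% ± 0.0453 in neocortex. Grin2c made up 98.4% ± 0.178 of Grin2c and Grin2b in cerebellum against 26.9% ± 0.968. These receptor pairs thus switched the dominant member between the regions. Homer3 made up 95.5% ± 0.670 of Homer3 and Homer1 against 8.15% ± 1.65, and Camk4 made up 87.2% ± 0.301 of Camk4 and Camk2a against 7.23% ± 0.338. Chn2, a Rac-regulating chimaerin, made up 85.6% ± 1.19 of Chn2 and Chn1 against 4.38% ± 0.141.

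Other pairs shifted by less. Itpr1 dominated over Itpr2 in both regions, and its share differed least of these pairs in percentage points, with 99.3% ± 0.0378 and 96.9% ± 0.202. The level of Itpr1 itself was far higher in cerebellum, as given above. Atp2a3 made up 18.1% ± 0.408 of Atp2a3 and Atp2a2 in cerebellum and 1.17% ± 0.0823 in neocortex. Syt2, the fast vesicle calcium sensor, made up 54.4% ± 1.0034 of Syt2 and Syt1 in cerebellum and 5.31% ± 0.197 in neocortex. Kcnd2 with Kcnd3 was nearly as close in percentage points, with 74.3% ± 0.522 and 71.8% ± 1.49.

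**Figure D5:**
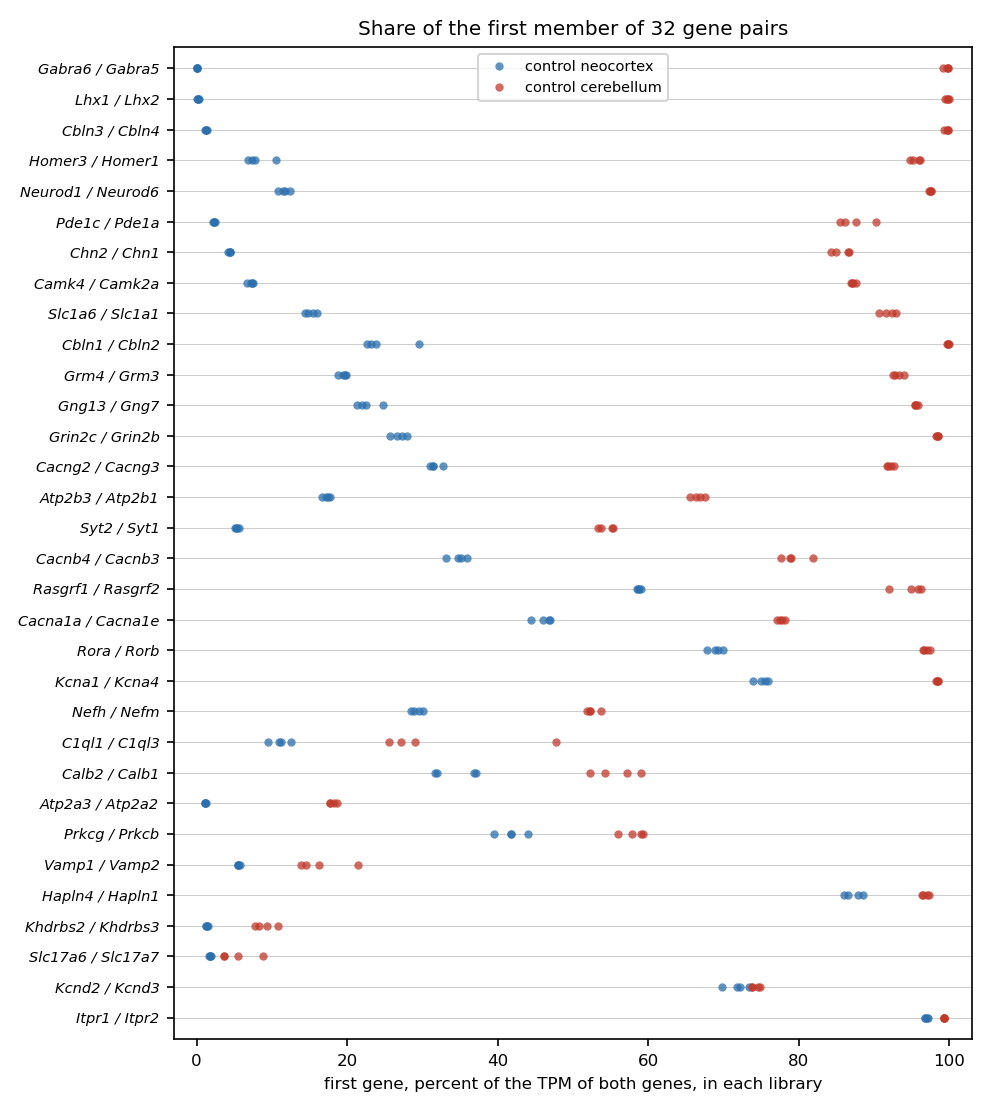
Share of the first gene in the summed TPM of each of 32 gene pairs (x axis, percent) in each control library, with pairs on the y axis ordered by the difference between regions; points are libraries. Gabra6 with Gabra5 sits near 0 in neocortex and near 100 in cerebellum, and in each pair shown the cerebellar shares lie above the neocortical ones.

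Control hippocampus gives a reference for which levels are cortical and which are shared by the forebrain. Its levels are given without a test. Nrgn stood at 1648 ± 101 TPM there, Camk2a at 1493 ± 67.3 TPM and Ddn at 1640.0 ± 43.2 TPM, in each case nearer to neocortex than to cerebellum. Tbr1 was lower in hippocampus, at 21.3 ± 4.75 TPM, than the neocortical mean of 67.6 TPM. The cerebellar genes Cbln3, Gabra6 and Pcp2 were at 0.305, 0.00710 and 0.0675 TPM in hippocampus, as near to 0 as in neocortex. Homer3 was intermediate, at 46.9 ± 3.57 TPM, between 270.3 TPM in cerebellum and 5.35 TPM in neocortex.

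The same contrast was available in libraries of tumour-bearing mice, which share no sample with the controls. Cerebellar LLC replicate 1 stood apart there, with a Hox sum of 83.6 TPM against 1.84 to 1.99 TPM in the other 3 and a granule neuron sum of 4849.8 TPM against 7668 to 8081 TPM. Of 15377 genes tested in these libraries 7565 were higher in cerebellum (49.2%) and 3436 lower (22.3%). Of 9156 genes called higher in controls and tested here, 7342 were again called higher (80.2%, and 86.3% of 9164 without cerebellar LLC replicate 1). They made up 98.3% of the 7470 genes called higher here and tested in controls. Of 3761 called lower, 3150 were again called lower (83.8%, and 88.9% without that library), which were 93.2% of the 3381 called lower here. The opposite call was made for 18 and 1 genes. A test of whether the regional difference itself differed between the treatments called 8 of 15551 genes (0.0514%), and 125 without cerebellar LLC replicate 1. The difference was 9.40 ± 0.19 for Cbln3, 9.40 ± 0.21 for Gabra6, -9.07 ± 0.10 for Ddn and -8.11 ± 0.26 for Nrgn in the tumour-bearing libraries, against 9.89 ± 0.04, 9.77 ± 0.07, -9.10 ± 0.09 and -8.30 ± 0.07 in controls. Across the 15084 genes tested in both, the differences had a Pearson correlation of 0.981, a description since genes are not independent.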

How the data were processed

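Per the labels' protocols, RNA was extracted with Trizol and sequenced on an Illumina NovaSeq from stranded TruSeq mRNA libraries. Values of 47643 gene symbols in 24 libraries came as a single TPM table made and deposited by the authors. The submitters' processing notes name the mouse build mm10, while no aligner, counter or strand setting is given in the sources used here. Depth is unknown, so no counting intervals are given.

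The 8 control columns of cerebellum and neocortex were analysed as log2(TPM + 1) of the deposited values, over genes with a mean of at least 1 TPM in either region. Regions were compared with limma 3.58.1 (R 4.3.3), moderated with a trend, two-sided, with Benjamini-Hochberg adjustment over the 15258 genes at 0.05. Median-ratio scaling, quantile normalization, other pseudocounts and filters, array weights, GC and length correction and leaving out each library were tried.

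The title numbers 14 to 17 served as a block in an alternative. Deviations from the region means correlated at 0.253, 0.181, 0.106 and 0.241 between libraries of the same number. Between libraries of different numbers they correlated at -0.186 to 0.0625. The numbers were therefore taken to pair the samples, as read from the data. Differences, standard errors and p-values are from the fit without the block unless stated.

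Genes named are the 15 with the largest difference in each direction among called, non-overlapping genes with a gene name, the first 8 members of each list described, and the members of 32 pairs. Other named genes were chosen after their values were seen. The members, lists and pairs were chosen with earlier results of these data known. Coordinates are from GENCODE release 21 for mm10, which matched 96.5% of the tested symbols. Some genes that this rule names, and pairs that hold them, are not reported here.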

Additional observations from a re-analysis of the deposited data

Results flagged for a closer look

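The 4 libraries of a region were examined for 1 that lay apart from the other 3, relative to their range, over 294 sets of values (96 genes whose levels are given and 51 list sums, in each region). A library lay apart in 13 of them, and chance alone would flag about 1 in 20 sets if values spread normally. A set with only 1 library above 0 is always flagged, as for Avp and Fezf2 in cerebellum and Lhx1os in neocortex. Some lists also share genes, so the 13 cannot be set against that rate. Cerebellar replicate 14 was the library in 4 of the 13.

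In cerebellum, replicate 14 was lowest for Camk2a (35.2 TPM, others 39.5 to 39.9 TPM), Homer3 (253 TPM, others 275 to 278 TPM) and the sum of the mural cell list (307 TPM, others 333 to 335 TPM). It was highest for the forebrain factor Emx1 (0.142 TPM, others 0.109 to 0.113 TPM), which stayed near 0. Replicate 16 was the only cerebellar library with Avp (0.138 TPM) or Fezf2 (0.0345 TPM) above 0. Replicate 17 had the lowest sum of upper layer markers (166 TPM, others 172 to 173 TPM).

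In neocortex, replicate 15 was highest for Gda (179 TPM, others 169 TPM), for Lhx1os (0.0910 TPM, others at 0) and for the sum of neurotrophins and growth factors (522 TPM, others 511 to 512 TPM). Replicate 16 was highest for Cbln1 (12.8 TPM, others 10.5 to 10.7 TPM). Replicate 17 was lowest for the sum of ephrins and Eph receptors (518 TPM, others 531 to 534 TPM) and highest for the endothelial sum (615 TPM, others 564 to 572 TPM).

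The regional difference itself was tested between control and tumour-bearing libraries with limma's interaction term, in 15551 genes. It passed for 8 (0.0514%), and 1824 had an unadjusted p of at most 0.05. Gda, far higher in neocortex, differed by 1.02 log2 units between the treatments (adjusted p = 0.00018), with 0.545 TPM in control cerebellum and 1.84 TPM in cerebellum of tumour-bearing mice. The immediate early genes Ier5 and Klf10 changed by 0.88 and 1.01, and Tnnc1, a troponin, by 1.19, in each case with a smaller deficit in cerebellum. Vim, the filament vimentin, changed by -0.97 and Erbb4, a neuregulin receptor, by -0.67. The unnamed transcripts Gm12655 and Gm13307 changed by 0.82 and -0.75. Without cerebellar LLC replicate 1 the test called 125 genes, which included all 8.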

How the results depend on the processing

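Of 378 named genes with a test, 295 kept their direction and their side of the threshold under all 20 alternatives, and 326 under all but the other scalings. Median-ratio scaling gave 6150 genes higher, 6213 lower and 1298 higher by at least 1 log2 unit, and quantile normalization gave 1406 of the last. Leaving out 1 library at a time gave 9099 to 9203 genes higher and 3683 to 3883 lower, and 2183 to 2274 and 1274 to 1320 by at least 1 log2 unit. With the title number as a block there were 9372 higher and 3869 lower, and besides Ly6c1, Slco1c1, Hbb-bs, Hbb-bt and Itpr2 (adjusted p = 0.0675) the block changed no call of a named gene. Leaving out 1 control library took the call, for one or more of the libraries, from Cdh2, Htr1b, Itpr2, Kcnk13, Lefty1, Pecam1, Rpl5 and Wif1, with adjusted p-values of 0.05 to 0.102. It gave a call to Acan, Acta2, C1ql1, Cacna1e and Rpl11 (without cerebellar replicate 14), Ly6c1 and Tph2 (that library or neocortical replicates 17 and 15 respectively), Hbb-bs, Hbb-bt and Mobp (cerebellar replicate 15, for Hbb-bs also neocortical replicates 16 and 17) and Slco1c1 (neocortical replicate 14), with adjusted p-values of 0.000185 to 0.0472. With all 24 libraries in 1 fit, 30 of the named genes lost their call, with adjusted p-values of 0.0528 to 0.408. Genes called in both control and tumour-bearing libraries fell from 10492 to 2946 when a difference of at least 1 log2 unit was required in both, a stricter rule. The treatment interaction called 125 genes without cerebellar LLC replicate 1, an alternative chosen after seeing the data.

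Apart from Nrtn, at -0.62 as first fitted, the values that changed sign lay within 0.31 log2 units of 0 before the change. With median-ratio scaling they were -0.2584 for Adarb2, -0.0773 for Aldh1l1, -0.2682 for Bcan, -0.1689 for Bpgm, -0.2321 for Cacna1e, -0.3318 for Camk2b, -0.1174 for Cdh5, -0.1115 for Elavl4, -0.2508 for Flt1, -0.0177 for Gabrb2, -0.2754 for Hba-a1, -0.1416 for Htr1b, -0.171 for Itpr2, -0.3085 for Kcna6, -0.0578 for Klf9, -0.0602 for Mapt, -0.0792 for Mbp, -0.2725 for Mobp, -0.1173 for Mog, -0.2703 for Pdgfrb, -0.0966 for Pecam1, -0.1696 for Rpl7, -0.1855 for Scn8a, -0.1795 for Slc22a6 and -0.3344 for Snap25. With quantile normalization they were -0.2559 for Adarb2, -0.0354 for Aldh1l1, -0.1167 for Bpgm, -0.179 for Cacna1e, -0.1667 for Cdh5, -0.0454 for Elavl4, -0.2915 for Flt1, -0.1936 for Htr1b, -0.148 for Itpr2, -0.2435 for Kcna6, -0.3161 for Pdgfrb, -0.1441 for Pecam1, 0.116 for Rpl8, -0.018 for Scn8a, 0.0592 for mt-Nd2 and 0.105 for mt-Nd3. Correction for GC content and length gave 0.0714 for Nrtn and -0.0829 for Snap25, and with the replicate block as well 0.0714 for Nrtn. The cause was not tested. The read depth of the libraries is not known, so no limit of detection is given for genes listed at 0.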

Other observations

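Genes high in cerebellum and near 0 in neocortex included some not usually tied to neurons, named after their values were seen. Krt25, a keratin of hair follicles, was at 13.5 TPM in cerebellum and 0.0489 TPM in neocortex, Smpx, a small muscle protein, at 11.1 and 0.0914 TPM, and Pkp3, a plakophilin of desmosomes, at 10.04 and 0.0984 TPM. Nrk, a kinase, was at 22.6 and 0.0333 TPM, and Chil5, a chitinase-like protein, at 16.3 and 0.0855 TPM. In neocortex, Gpr6, an orphan receptor, was at 22.6 TPM against 1.42 TPM in hippocampus and 0.0457 TPM in cerebellum, and Bmp3 at 11.97 TPM against 3.00 and 0.0836 TPM. The neocortical libraries also carried striatal markers, as given above, and whether striatal transcripts had a part in these levels was not tested.

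The size of the regional difference moved with gene structure. From the fifth of genes with the lowest to that with the highest GC content of transcripts, the median difference went from 0.38 to 0.23, and from the shortest to the longest transcripts it went from 0.21 to 0.39, against 0.31 for all genes. The part of this in any named gene was not tested beyond the GC and length correction above.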
